A study of Mus musculus with 12 samples.

Results

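The comparison described here sets cultured mouse cells that carry the label induced neural stem cell (iNSC) against wild-type mouse embryonic fibroblasts (MEF). Its members are 9 of the 12 expression arrays of the study: 6 arrays in the sets iNSC1 and iNSC2 (replicates 1, 2 and 3 of each) and 3 MEF arrays (replicates 1, 3 and 5). They were taken by sample title, and the difference reported is the mean of the iNSC1 and iNSC2 means minus the MEF mean. The other 3 arrays, labelled wild-type neural stem cells (NSC), enter the estimate of the spread and are named for some genes only. Where no NSC value is given, the iNSC level can match theirs or depart from it. The iNSC cells grew in a neural stem cell basal medium with EGF at 20 ng/ml, FGF-2 at 20 ng/ml and heparin at 2 µg/ml, whereas MEF cultures received DMEM and 10% fetal bovine serum. Cell type and medium therefore changed together and cannot be told apart in any value below. All cells were rinsed in medium free of serum before RNA was taken. The sources used here give no strain, sex, embryonic stage, passage or reprogramming factors, no meaning for the numbers 1 and 2 in iNSC1 and iNSC2, and no number of separate cultures, so p-values measure the spread between these arrays, which may be technical.

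Fibroblasts are connective tissue cells that secrete collagen and other matrix, pull on it through actin stress fibres and respond to serum through the SRF and YAP/TEAD transcription factors. Neural stem cells in culture are kept dividing by EGF and FGF-2 and are recognised by nestin, SOX2, PAX6 and radial glial proteins. Direct conversion of a fibroblast into a neural stem cell would replace the first set of transcripts by the second.

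Expression was read on Affymetrix Mouse Gene 1.0 ST arrays, whose short probes are summarised into 1 value per probe set on a log2 scale, so a difference of 1 is a 2-fold change. Across probe sets, iNSC arrays correlated with each other at 0.988 to 0.994, MEF arrays at 0.987 to 0.994, and iNSC with MEF arrays at 0.844 to 0.867. Array medians lay between 4.31 and 4.44. The arrays carry no detection call: a low value can be background, and a fold change against it describes readings rather than transcript numbers. Each comparison stays inside 1 probe set, and levels of different genes are not ranked. Where a list has 1 to 3 called members that go against its main direction, those members are named although their values had been seen. Where such members number 4, as in the glycolysis and imprinted lists, only some are named.

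Fibroblast markers set the MEF arrays apart from the iNSC arrays, and no neural stem cell marker differed between them by 2-fold. None of the 10 neural stem cell markers was called, that is, passed a Benjamini-Hochberg adjusted p under 0.05 in limma and differed at least 2-fold; without the fold minimum 4 were higher in iNSC at that adjusted p and 5 at an unadjusted p under 0.05, and none was lower. Sox2, a high-mobility-group factor of stem cells, read 4.31, 4.50 and 4.62 in the iNSC arrays (lowest, median and highest of 6) and 4.47, 4.48 and 4.55 in the MEF arrays. The arrays of the labels overlapped, and the difference was -0.011 ± 0.093 (SE; 95% confidence interval -0.21 to 0.19). Nes, which encodes nestin, read 5.10, 5.88 and 6.02 in iNSC and 4.84, 5.19 and 5.42 in MEF arrays, a difference of 0.58 ± 0.16. Sox1, a factor of early neural precursors, stood closest to a call, at 7.76, 7.81 and 8.00 in iNSC and 6.80, 7.04 and 7.05 in MEF arrays; the arrays did not overlap and the difference was 0.89 ± 0.075 (adjusted p = 1.87e-08). Pax6 differed by 0.61 ± 0.12, Msi1 by 0.52 ± 0.12, Olig2 by 0.23 ± 0.11, Gfap by 0.21 ± 0.14, Hes5 by 0.15 ± 0.092, Fabp7 by 0.083 ± 0.10 and Slc1a3 by -0.019 ± 0.10 (SE). The arrays labelled as wild-type neural stem cells are set beside these values: Sox2 averaged 4.49 in iNSC and 4.58 in NSC arrays, a difference of -0.088 ± 0.093, and Nes averaged 5.73 in iNSC and 4.79 in NSC arrays, a difference of 0.94 ± 0.16 (SE, n = 6 and 3 arrays). The iNSC minus NSC difference was -0.87 ± 0.11 for Olig2 and -0.55 ± 0.12 for Pax6. For the other markers it ran from -0.18 ± 0.12 for Msi1 to 0.17 ± 0.10 for Slc1a3. Against MEF arrays, NSC arrays differed by 1.16 ± 0.14 in Pax6, 1.11 ± 0.13 in Olig2 and 1.02 ± 0.087 in Sox1. Their remaining markers ran from -0.36 ± 0.18 for Nes to 0.70 ± 0.13 for Msi1. All arrays are called by their labels only.

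Among the other cell types checked, all 10 fibroblast markers and all 7 macrophage markers were called lower in iNSC, with a background of 10.7% of probe sets called lower. Of 4 pluripotent cell markers measured on their own probe set, Pou5f1 was called higher and Esrrb (0.20 ± 0.12), Dppa4 (0.13 ± 0.097) and Tdgf1 (-0.49 ± 0.19) were not called. Of 6 epithelial markers, the keratins Krt14 and Krt8 were called higher, while Cdh1 (0.47 ± 0.11), Epcam (0.29 ± 0.10), Krt18 (-0.035 ± 0.11) and the basal epithelial factor Trp63 (-0.034 ± 0.096) were not called. limma called none of the 3 endothelial and none of the 3 skeletal muscle markers; at an unadjusted p under 0.05 the counts were 0 and 1. Of 3 neuronal markers, Map2, a microtubule-binding protein of dendrites, was called higher (1.35 ± 0.14), and Tubb3 (0.60 ± 0.093) and Rbfox3 (0.69 ± 0.099) were not.

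**Figure D1:**
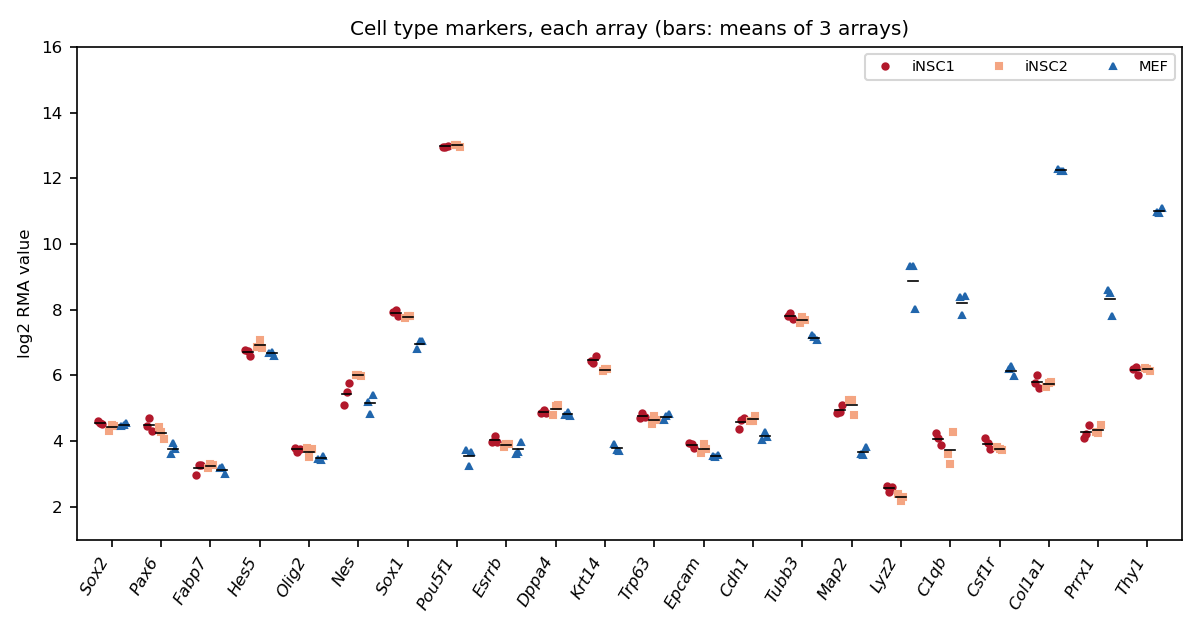
Log2 RMA values of 22 cell type markers on each array, with iNSC1 (circles), iNSC2 (squares) and MEF (triangles) side by side for each gene and a bar at the mean of each 3 arrays. Neural markers from Sox2 to Sox1 differ by less than 2-fold between iNSC and MEF arrays. Of these, Pax6 and Sox1 lie higher in iNSC without overlap. Pou5f1 lies far higher in both iNSC sets, and the macrophage and fibroblast markers at the right lie higher in the MEF arrays.

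Of 18403 probe sets with a single gene symbol, 1521 (8.26%) were called higher and 1976 (10.7%) lower in iNSC than in MEF arrays. Taken as 1 probe set per gene, 1405 genes were called higher (8.21%) and 1857 lower (10.9%) of 17103, or 19.1%. List counts below are to be read beside these shares. The lower side held the larger changes: of 394 probe sets past 8-fold (2.14%), 112 were higher (0.609%) and 282 lower (1.53%), and of 26 past 64-fold (0.141%), 3 were higher (0.0163%) and 23 lower (0.125%). Without any p, the 6 iNSC and 3 MEF arrays did not overlap in 49.2% of probe sets, so a lack of overlap alone sets no gene apart. Among called probe sets, 1519 of the 1521 rises and 1933 of the 1976 falls had no overlap. Among called probe sets the median size of the difference was 1.48 for rises and 1.59 for falls, against a median size of 0.33 over all probe sets; the signed median over all was 0.065. In 641 of the rises (42.1%) the MEF mean was under 5 on the log2 scale, and in 997 of the falls (50.5%) the iNSC mean was; such differences start from a low reading. Both means reached 8 in 91 rises and 120 falls. Set against MEF alone, iNSC1 was called for 19.5% of probe sets (8.57% higher, 10.9% lower) and iNSC2 for 18.7% (8.24% higher, 10.5% lower). Both were called in the same direction for 3135 of them, and none was called in opposite directions; both sets are compared with the same MEF arrays. Of the lower probe sets, 39 carry the name of 1 gene model, LOC280487, with the same values in each.

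**Figure D2:**
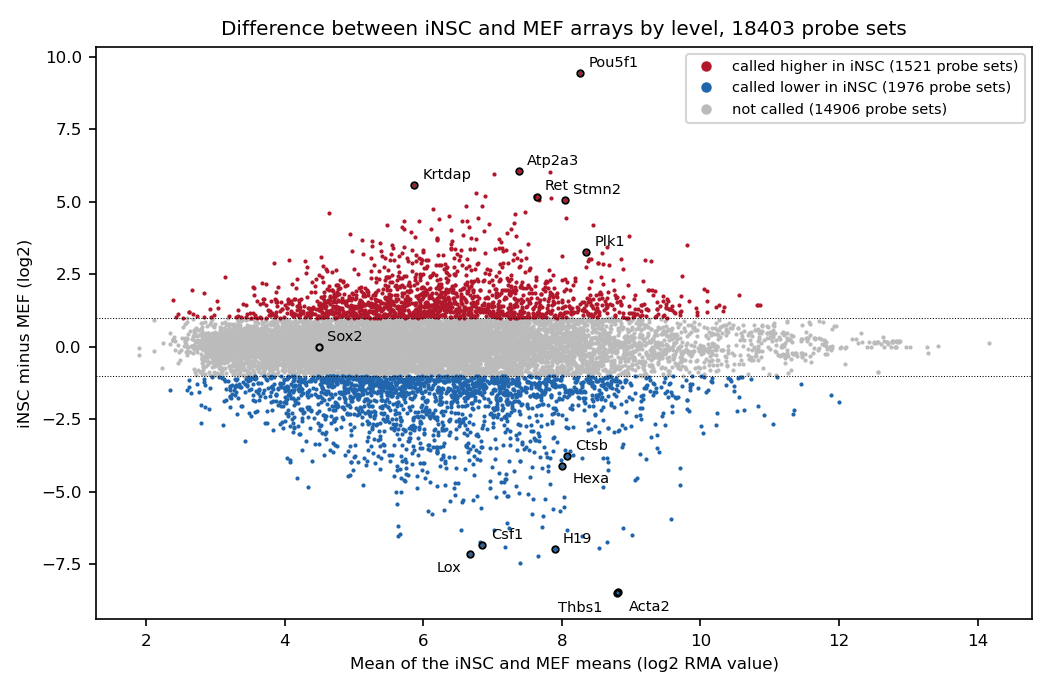
Difference between the iNSC and MEF means (log2, vertical) against the mean of both means (log2 RMA value, horizontal) for 18403 probe sets. Dotted lines mark a 2-fold change, the 1521 probe sets called higher are red and the 1976 called lower are blue; the falls reach further from 0 than the rises, with Pou5f1 as the exception.

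The largest single change was in Pou5f1 on chromosome 17, which encodes the POU-domain factor OCT4 of pluripotent cells. It read 12.96, 12.99 and 13.03 in the iNSC arrays and 3.24, 3.67 and 3.73 in the MEF arrays. Every iNSC array was far above every MEF array, and the difference was 9.45 ± 0.080 (SE, n = 6 and 3 arrays), which is 698-fold (limma adjusted p = 1.34e-20). Behind it came Atp2a3, which pumps calcium into the endoplasmic reticulum, at 10.32, 10.42 and 10.47 in iNSC and 4.16, 4.41 and 4.49 in MEF arrays (difference 6.05 ± 0.072). Cyp4f39, a cytochrome P450 that hydroxylates very long fatty acids for the skin barrier, read 9.82, 9.99 and 10.16 in iNSC and 3.77, 4.08 and 4.29 in MEF arrays (5.95 ± 0.11). The NSC means were 12.89 for Pou5f1, 9.72 for Atp2a3 and 4.62 for Cyp4f39. Pou5f1, Atp2a3 and Cyp4f39 had no overlapping arrays, but the largest rises and falls were picked only from genes without overlap. The other large rises were Krtdap (5.58 ± 0.11), Cyp2s1 (5.32 ± 0.17), Aqp3 (5.20 ± 0.12), Gng3 (5.19 ± 0.14), Ret (5.18 ± 0.15), Lgals7 (5.08 ± 0.10), Stmn2 (5.08 ± 0.065), Krt17 (4.86 ± 0.084) and the carbonic anhydrase Car14 (4.86 ± 0.082). They mix products of stratified epithelium (Krtdap, Lgals7, Krt17, Aqp3) with neuronal ones (Gng3, Stmn2).

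Most of the largest falls shown encode secreted matrix proteins or the actin apparatus of fibroblasts. Thbs1, the matrix glycoprotein thrombospondin, read 4.32, 4.58 and 4.65 in iNSC and 12.94, 13.08 and 13.09 in MEF arrays, and fell by 8.49 ± 0.088 or 360-fold (adjusted p = 1.72e-19). Acta2, smooth muscle actin, read 4.21, 4.65 and 5.01 in iNSC and 12.97, 13.06 and 13.11 in MEF arrays and fell by 8.46 ± 0.14. In both genes the 3 MEF arrays lay close together and no iNSC array came near them. Mgp, a secreted inhibitor of calcification, fell by 6.71 ± 0.13, Penk, the precursor of enkephalins, fell by 6.90 ± 0.15, and Ccdc80, a secreted protein that binds matrix, fell by 6.50 ± 0.12. Tnc, Tagln, Lox, Csf1, Col1a2 and Igfbp7 are described with their groups.

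**Figure D3:**
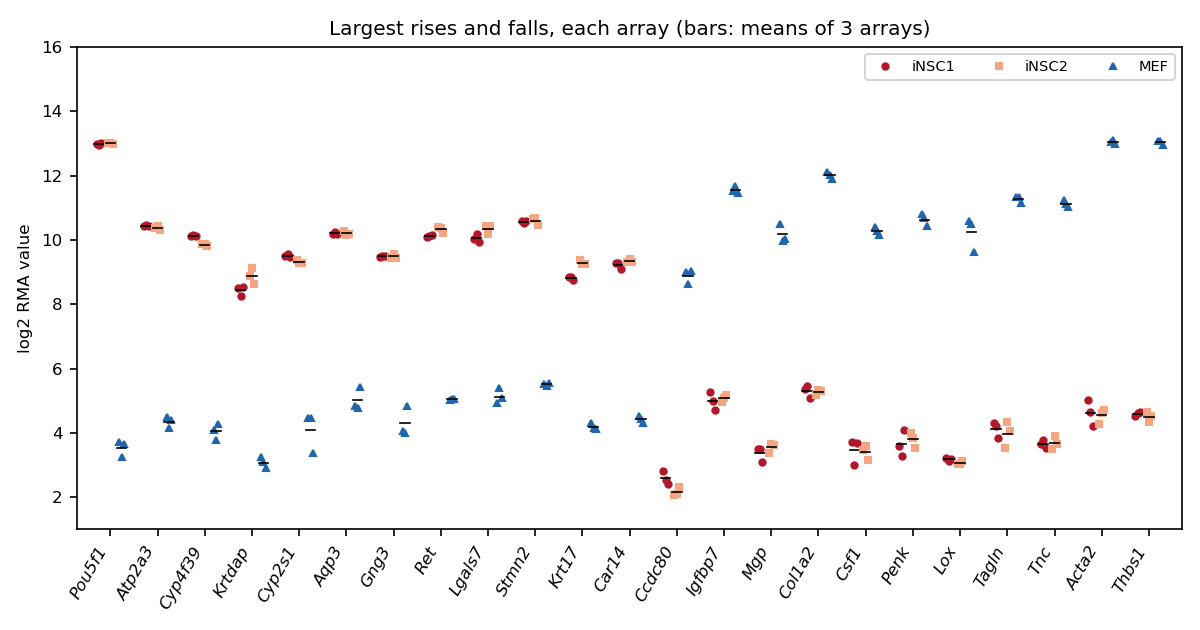
Log2 RMA values on each array for the 12 genes with the largest rise (left) and 11 of the 12 with the largest fall (right) whose arrays do not overlap; iNSC1 circles, iNSC2 squares, MEF triangles, bars at the mean of 3 arrays. Within each set the arrays lie close together compared with the gap between iNSC and MEF.

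Collagens and the enzymes that process them were lower in 24 of 32 measured members, with none called higher and a median difference of -2.74 against 0.061 over all genes. Col1a1, the main chain of fibrillar collagen, read 5.62, 5.77 and 6.02 in iNSC and 12.24, 12.24 and 12.28 in MEF arrays and fell by 6.48 ± 0.087 (adjusted p = 3.06e-18). Its partner chain Col1a2 read 5.08, 5.32 and 5.46 in iNSC and 11.91, 12.01 and 12.12 in MEF arrays, a fall by 6.72 ± 0.096. For each chain the 3 MEF arrays lay close together and none came near an iNSC array. Lox, the oxidase that cross-links collagen, read 3.02, 3.12 and 3.21 in iNSC and 9.64, 10.51 and 10.58 in MEF arrays and fell by 7.13 ± 0.16; MEF replicate 5 gave the lowest MEF value and was still far above the iNSC arrays. Loxl1, a relative of Lox, fell by 5.55 ± 0.12, and Col3a1 by 5.26 ± 0.11. The 8 members not called lay between -0.83 and 0.77. In RNA from whole cultures, fewer cells of a type and less of a transcript per cell cannot be told apart.

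Matrix glycoproteins and proteoglycans had the highest share of falls of the 35 lists, 29 of 33 measured members, with a median of -2.82. Tnc, the adhesion-modulating matrix protein tenascin, read 3.51, 3.66 and 3.90 in iNSC and 11.02, 11.13 and 11.24 in MEF arrays and fell by 7.46 ± 0.10. Efemp1, a fibulin of elastic matrix, fell by 6.31 ± 0.11, and Fn1, fibronectin, which read 9.88, 10.13 and 10.56 in iNSC and 12.44, 12.51 and 12.52 in MEF arrays, fell by 2.30 ± 0.055. Bgn, the proteoglycan biglycan, fell by 6.23 ± 0.087 and differed between the iNSC sets, as given further on. Dcn, the related proteoglycan decorin, was the 1 member called higher: it read 8.29, 8.36 and 9.05 in iNSC and 6.36, 6.79 and 6.88 in MEF arrays, a rise of 1.86 ± 0.15. Metalloproteases, plasminogen activators and their inhibitors were lower in 18 of 26 members and higher in none (median -2.20). Mmp14, a membrane collagenase, fell by 5.64 ± 0.090, Serpine2, a thrombin and protease inhibitor, by 5.29 ± 0.15, and Plau, the urokinase plasminogen activator, by 4.99 ± 0.10. Enzymes that cut matrix and inhibitors that restrain them were both among the falls.

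In the list of contractile, SRF and YAP target genes 23 of 31 members were lower, with none higher and a median of -2.72. Tagln, an actin-binding protein of smooth muscle and myofibroblasts, read 3.52, 4.14 and 4.35 in iNSC and 11.15, 11.32 and 11.32 in MEF arrays and fell by 7.21 ± 0.15. Myl9, a myosin regulatory light chain, read 4.65, 4.93 and 5.12 in iNSC and 11.12, 11.26 and 11.28 in MEF arrays (fell by 6.30 ± 0.10), and Cnn1, calponin, fell by 6.09 ± 0.11. Among the 8 members not called were the regulators Srf (-0.19 ± 0.084), Yap1 (-0.999 ± 0.095) and the YAP relative Wwtr1 (-0.33 ± 0.11), which are named although their values had been seen. RefSeq promoters (GRCm38.p6, 250 bases before to 50 after the start) were found for 19 of the 23 lower genes, 22 promoters in all, and searched on both strands for GGAATG, bound by TEAD factors, and for the CArG box, bound by SRF. The CArG box was taken strictly as CCWWWWWWGG, with W for A or T. Near matches, such as ccctatatgg in Acta2, are neither counted nor capitalised. The motifs can share at most 2 bases. GGAATG stood in 40.9% of the 22 promoters against 14.7% of all 32851 promoters of the table, and the CArG box in 13.6% against 1.63%. The list holds genes chosen as contractile, SRF and YAP targets, so these shares describe the choice of genes. A match is a description of the letters in this window and was not tested. The promoters of Acta2 (chr19:34255324-34255623, minus strand), which had the largest fall, and Myl9 (chr2:156775214-156775513, plus strand), which holds a CArG box, are shown 5′ to 3′ with matches in capitals: GGAATG in Acta2 and the CArG box in Myl9. The promoters of the next 2 genes by size of fall in the table, Cnn1 and Tpm2, hold neither motif and are not shown.

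Acta2: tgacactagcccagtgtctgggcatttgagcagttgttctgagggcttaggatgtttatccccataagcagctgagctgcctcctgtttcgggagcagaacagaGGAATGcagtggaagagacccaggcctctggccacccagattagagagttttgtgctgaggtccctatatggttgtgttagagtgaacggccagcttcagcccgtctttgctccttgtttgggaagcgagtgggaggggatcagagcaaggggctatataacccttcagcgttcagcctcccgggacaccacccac

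Myl9: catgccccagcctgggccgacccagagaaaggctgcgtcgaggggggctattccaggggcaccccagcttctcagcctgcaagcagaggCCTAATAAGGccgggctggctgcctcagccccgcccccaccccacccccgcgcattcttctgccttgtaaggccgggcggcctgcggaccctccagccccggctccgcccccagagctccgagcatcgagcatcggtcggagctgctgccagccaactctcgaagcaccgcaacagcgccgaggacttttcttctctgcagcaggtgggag

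**Figure D4:**
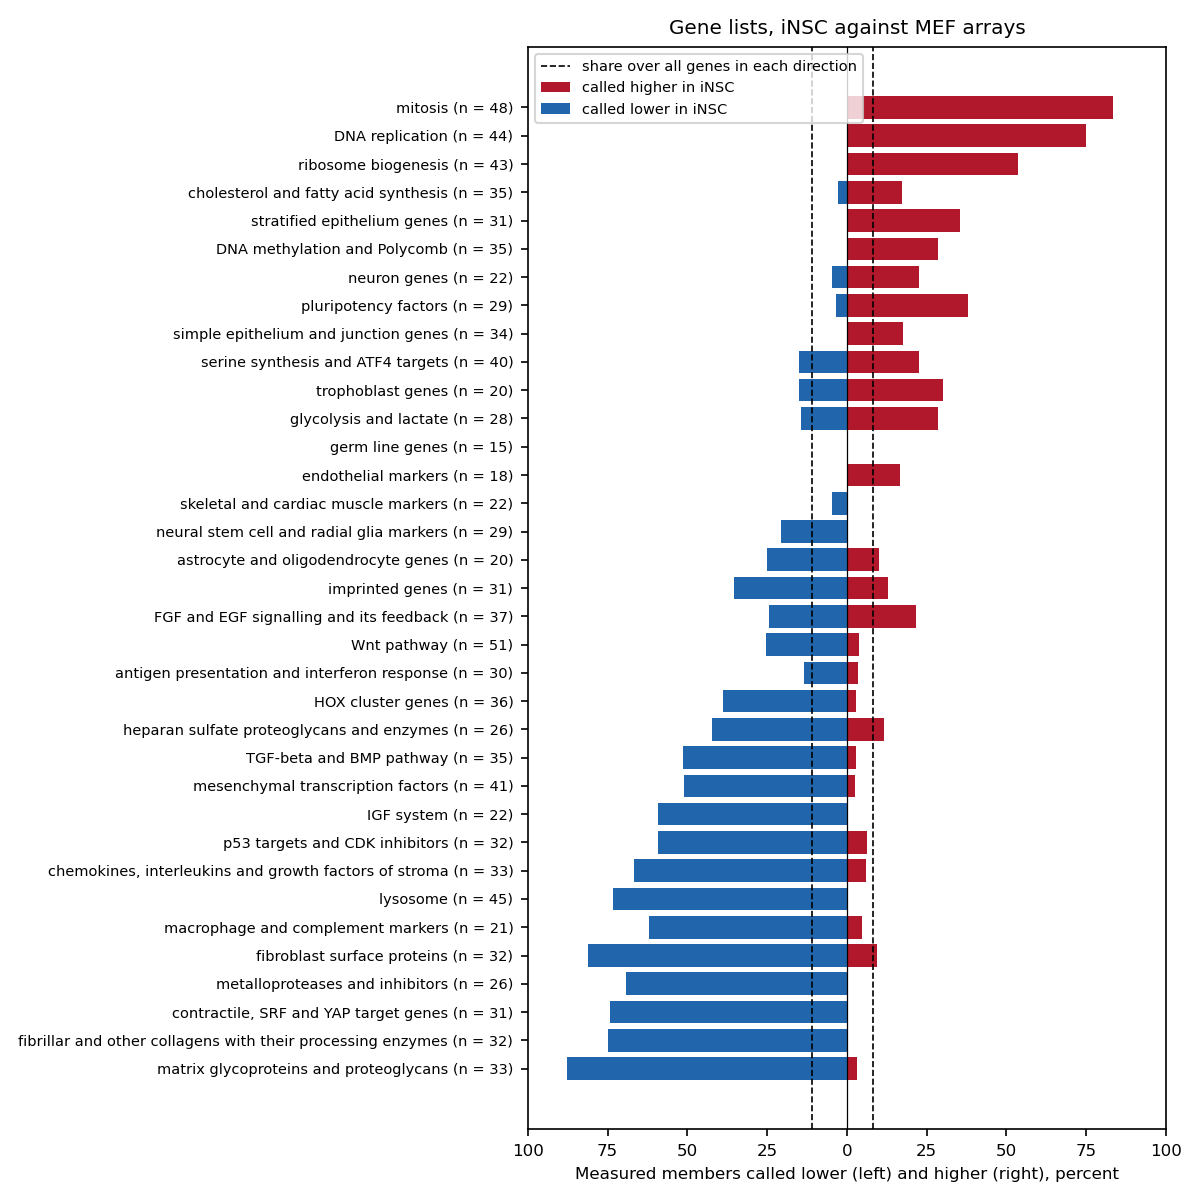
Percent of measured members called higher (right, red) and called lower (left, blue) in iNSC against MEF arrays for 35 gene lists, ordered by median difference, with the number measured in brackets. Dashed lines mark the shares over all genes, 8.21% higher and 10.9% lower; mitosis, DNA replication and ribosome biogenesis are at the top and matrix, collagen and contractile lists at the bottom.

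Transcription factors of mesenchyme were lower in 21 of 41 members and higher in 1 (median -1.08). Prrx1, a homeobox factor of limb and facial mesenchyme, read 4.10, 4.26 and 4.50 in iNSC and 7.82, 8.53 and 8.62 in MEF arrays and fell by 4.01 ± 0.15. Its relative Prrx2 fell by 3.90 ± 0.15, the helix-loop-helix factor Twist2 by 3.77 ± 0.11 and the forkhead factor Foxc1 by 2.76 ± 0.11. The arrays did not overlap for any of these 4 genes, as in 1933 of the 1976 probe sets called lower. Klf12, a zinc-finger factor, was the member that rose (1.43 ± 0.094). Of 36 HOX genes, which pattern the embryo from head to tail, 14 were lower and 1 was higher, Hoxc4 (1.18 ± 0.16), with a median of -0.53. These shares, 38.9% lower and 2.78% higher, stand beside 10.9% and 8.21% over all genes. Hoxc10 read 3.42, 4.04 and 4.36 in iNSC and 6.55, 6.66 and 6.77 in MEF arrays and fell by 2.68 ± 0.13, Hoxc6 fell by 2.65 ± 0.15, Hoxa11 by 2.17 ± 0.12 and Hoxc8 by 2.06 ± 0.12. All 4 read under 5 in every iNSC array, where a reading can be background.

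Surface proteins of fibroblasts were lower in 26 of 32 members and higher in 3 (median -1.94). Pdgfrb, the PDGF receptor of mesenchymal cells, read 3.54, 4.01 and 4.13 in iNSC and 9.10, 9.28 and 9.31 in MEF arrays and fell by 5.33 ± 0.11. Thy1 fell by 4.83 ± 0.12, the mesenchymal cadherin Cdh11 by 4.45 ± 0.16 and the adhesion molecule Mcam by 3.89 ± 0.11. The 3 that rose were the ecto-nucleotidase Nt5e (1.72 ± 0.13), the Wnt5a receptor Ror2 (1.60 ± 0.066) and Cd109 (1.23 ± 0.17). Cdh2, the N-cadherin of both neural and mesenchymal cells, which also stands in the neural list, read 3.79, 4.02 and 4.13 in iNSC and 7.34, 7.42 and 7.73 in MEF arrays and fell by 3.50 ± 0.11. In the wider neural stem cell and radial glia list limma called 0 of 29 members higher (10 at an unadjusted p under 0.05) and 6 lower, with a median of 0.063. The share lower was 20.7%, against 10.9% of all genes. Those falls included the intermediate filament Vim (-1.65 ± 0.043) and the receptor Notch1 (-1.11 ± 0.083).

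In the TGF-beta and BMP pathway the falls included ligands, secreted inhibitors and target genes. The list was lower in 18 of 35 members and higher in 1, the SMAD co-repressor Skil (1.65 ± 0.12), with a median of -1.05. Fst, the activin-binding protein follistatin, read 4.35, 4.52 and 4.79 in iNSC and 9.02, 9.34 and 9.80 in MEF arrays and fell by 4.85 ± 0.14. The ligand Tgfb3 fell by 4.37 ± 0.10, Id3, a target of BMP signalling, by 3.50 ± 0.14, and Bmp1, a protease that matures procollagen, by 3.21 ± 0.072. Wnt pathway genes were lower in 13 of 51 (25.5%, against 10.9% of all genes) and higher in 2 (3.92%, against 8.21%). The 2 that rose were the ligand Wnt7a (1.13 ± 0.12) and the transcription factor Tcf7l2 (1.12 ± 0.090). The median of the Wnt list was -0.16. Wnt5a, a ligand of the non-canonical branch, read 3.25, 3.40 and 3.69 in iNSC and 7.76, 8.10 and 8.31 in MEF arrays and fell by 4.64 ± 0.13. The secreted antagonists Sfrp1 and Sfrp2 fell by 3.44 ± 0.17 and 3.37 ± 0.099, and Dkk3 by 3.54 ± 0.19. In the insulin-like growth factor system 13 of 22 members were lower and none higher (median -1.30). Igfbp7 read 4.72, 5.04 and 5.27 in iNSC and 11.46, 11.53 and 11.69 in MEF arrays and fell by 6.52 ± 0.11, and the binding proteins Igfbp4 and Igfbp6 fell by 5.24 ± 0.086 and 3.61 ± 0.11.

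The list of FGF and EGF signalling, whose ligands EGF and FGF-2 were added to the iNSC and not to the MEF medium, moved both ways: 8 of 37 members were higher and 9 lower, with a median of -0.063. Fgf15, an endocrine FGF, read 7.29, 7.69 and 7.94 in iNSC and 4.28, 5.00 and 5.22 in MEF arrays, a rise of 2.83 ± 0.19. Fgf7, a stromal growth factor for epithelium, read 2.96, 3.06 and 3.41 in iNSC and 6.33, 6.98 and 7.37 in MEF arrays and fell by 3.79 ± 0.18. Hbegf, an EGF receptor ligand, fell by 2.42 ± 0.12, and Errfi1, a feedback inhibitor of that receptor, by 2.35 ± 0.099. The receptor for the added EGF, Egfr, named although its values had been seen, read 4.02, 4.32 and 4.63 in iNSC and 6.31, 6.38 and 6.54 in MEF arrays and fell by 2.08 ± 0.12, while the FGF receptor Fgfr1 read 8.14, 8.18 and 8.23 in iNSC and 8.76, 8.84 and 8.95 in MEF arrays and was not called (-0.67 ± 0.072). Heparan sulfate proteoglycans and enzymes, which present FGFs to their receptors, were lower in 11 of 26 and higher in 3 (median -0.76). Gpc4, a glypican, read 3.68, 3.89 and 4.11 in iNSC and 10.02, 10.17 and 10.35 in MEF arrays and fell by 6.30 ± 0.12. Syndecan Sdc2 fell by 3.00 ± 0.16 and the sulfatase Sulf1 by 2.84 ± 0.097. On the other side Hs3st3a1, a sulfotransferase, read 9.56, 9.74 and 10.12 in iNSC and 5.01, 5.02 and 5.39 in MEF arrays (4.66 ± 0.10), and the heparan sulfate cutting enzyme Hpse (2.31 ± 0.12) and the chain-starting Xylt1 (1.59 ± 0.091) rose too.

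Chemokines and stromal growth factors were lower in 22 of 33 members and higher in 2 (median -1.43). Csf1, the growth factor that keeps macrophages alive, read 3.01, 3.54 and 3.71 in iNSC and 10.14, 10.29 and 10.39 in MEF arrays and fell by 6.83 ± 0.15. Vegfd, a lymphatic growth factor, fell by 4.99 ± 0.11 and the monocyte chemokine Ccl2 by 4.09 ± 0.11. The 2 that rose were Pdgfb (1.55 ± 0.080) and midkine, Mdk (1.22 ± 0.11). Macrophage and complement genes were lower in 13 of 21 and higher in 1 (median -1.88). Lyz2, lysozyme, read 2.19, 2.42 and 2.62 in iNSC and 8.02, 9.32 and 9.34 in MEF arrays and fell by 6.46 ± 0.22; the lowest MEF value is that of replicate 5. The complement subunits C1qc, C1qb and C1qa fell by 4.37 ± 0.13, 4.32 ± 0.18 and 3.94 ± 0.10, and the receptor Csf1r by 2.30 ± 0.10. Complement C3, made by many cell types, was the member that rose: it read 7.86, 8.26 and 8.60 in iNSC and 4.35, 4.58 and 4.87 in MEF arrays (3.64 ± 0.12). The summed log2 values of all 21 genes of this list, C3 included, ran from 79.9 to 82.4 in iNSC arrays. In MEF arrays the sums ran from 118 to 125. The part of the macrophage and complement genes in the falls of chemokine, lysosome and surface genes was not tested.

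Lysosomal genes, which encode the acid hydrolases and membrane proteins that degrade cargo, were lower in 33 of 45 members and higher in none, with a median of -1.61. Ctsk, the collagen-degrading cathepsin K, read 2.65, 2.88 and 3.07 in iNSC and 6.82, 7.08 and 7.42 in MEF arrays and fell by 4.23 ± 0.14. Hexa, a subunit of the ganglioside hydrolase hexosaminidase, read 5.51, 6.04 and 6.29 in iNSC and 9.97, 10.05 and 10.15 in MEF arrays and fell by 4.10 ± 0.085. Ctsh fell by 3.95 ± 0.10 and Ctsb by 3.78 ± 0.11. The falls reached across enzyme classes, with every array of the 4 genes apart between labels, as in 1933 of the 1976 probe sets called lower. Tfeb, the transcription factor of lysosome genes, was not called and stood highest in the list (0.75 ± 0.092); it is named although its value had been seen. The macrophage markers given above moved the same way in the same arrays.

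Targets of p53 and inhibitors of cyclin-dependent kinases were lower in 19 of 32 members and higher in 2 (median -1.37). Ccng1, a cyclin induced by p53, read 4.30, 4.87 and 5.09 in iNSC and 8.78, 9.80 and 9.81 in MEF arrays and fell by 4.66 ± 0.21. MEF replicate 5 had the lowest value of the 3 and remained above all iNSC arrays. Gadd45g, a stress-induced growth arrest gene, fell by 3.64 ± 0.096, Trp53inp1, a partner of p53 in the stress response, by 3.14 ± 0.18, and Cdkn2b, the inhibitor p15, by 3.14 ± 0.072. Trp53 itself was not called (0.93 ± 0.071). The 2 that rose were the imprinted inhibitor Cdkn1c (1.46 ± 0.096) and Gadd45b (1.35 ± 0.082).

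Genes of cell division rose in both lists that hold them. DNA replication genes were higher in 33 of 44 members with none lower (median 1.52), and mitosis genes in 40 of 48 with none lower (median 1.88), against 8.21% of all genes called higher. Cdt1, which loads the replicative helicase, read 8.85, 8.99 and 9.20 in iNSC and 5.85, 5.97 and 6.04 in MEF arrays, a rise of 3.06 ± 0.069 (adjusted p = 8.11e-16). Pold2, a subunit of DNA polymerase delta, rose by 3.02 ± 0.066, the helicase subunit Mcm6 by 2.76 ± 0.093 and the primase Prim1 by 2.65 ± 0.17. Plk1, a kinase that drives entry into and passage through mitosis, read 9.83, 9.96 and 10.13 in iNSC and 6.62, 6.65 and 6.87 in MEF arrays and rose by 3.27 ± 0.072 or 9.65-fold. Ncapd2, a condensin subunit, read 8.77, 8.89 and 9.03 in iNSC and 5.79, 5.82 and 5.84 in MEF arrays (3.07 ± 0.071), the centromeric histone Cenpa rose by 2.89 ± 0.075, and cyclin A, Ccna2, by 2.89 ± 0.12. For each of these 8 genes all 6 iNSC arrays lay above all 3 MEF arrays, as in 1519 of the 1521 probe sets called higher. Mki67, the usual proliferation marker, named although its value had been seen, rose by 1.56 ± 0.14. The 8 mitosis members not called ran from -0.093 to 0.98.

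Promoters were found in the RefSeq table for 32 of the 40 mitosis genes called higher, 34 promoters in all, and searched on both strands for CCAAT, bound by NF-Y, and TTTGAA, the core of the CHR element of cell cycle genes; the motifs can share at most 1 base. CCAAT stood in 82.4% of the 34 promoters, against 37.4% of all 32851, and TTTGAA in 76.5% against 17.9%. In the lower contractile genes the shares were 45.5% and 9.09%. The mitosis list holds genes long studied through these elements, so the shares describe the list and no test was made. The promoters of the 4 genes with the largest rise among those in the table are shown because they display the paired motifs: Plk1 (chr7:122159185-122159484, plus strand), Ncapd2 (chr6:125191537-125191836, minus strand), Cenpa (chr5:30666636-30666935, plus strand) and Racgap1, a regulator of cytokinesis (chr15:99651607-99651906, minus strand). They are RefSeq sequences of GRCm38.p6, 5′ to 3′, with CCAAT, its complement ATTGG and TTTGAA in capitals.

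Plk1: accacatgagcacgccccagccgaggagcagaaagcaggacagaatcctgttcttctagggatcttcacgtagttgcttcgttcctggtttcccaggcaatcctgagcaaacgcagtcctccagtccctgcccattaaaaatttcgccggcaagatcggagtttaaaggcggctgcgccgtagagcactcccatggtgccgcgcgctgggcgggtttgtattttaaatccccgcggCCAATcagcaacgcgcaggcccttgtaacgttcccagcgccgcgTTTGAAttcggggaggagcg

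Ncapd2: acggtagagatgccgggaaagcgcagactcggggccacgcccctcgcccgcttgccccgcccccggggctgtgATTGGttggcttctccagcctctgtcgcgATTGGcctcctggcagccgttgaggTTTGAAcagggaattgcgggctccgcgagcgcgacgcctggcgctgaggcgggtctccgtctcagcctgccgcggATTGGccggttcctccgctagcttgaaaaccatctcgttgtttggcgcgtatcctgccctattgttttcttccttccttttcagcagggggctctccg

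Cenpa: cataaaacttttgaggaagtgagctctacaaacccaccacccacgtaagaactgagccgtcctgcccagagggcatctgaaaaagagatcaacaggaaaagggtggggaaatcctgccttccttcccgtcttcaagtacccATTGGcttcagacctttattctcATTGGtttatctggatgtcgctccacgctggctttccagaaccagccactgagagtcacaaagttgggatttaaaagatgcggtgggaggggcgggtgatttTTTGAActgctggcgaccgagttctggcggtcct

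Racgap1: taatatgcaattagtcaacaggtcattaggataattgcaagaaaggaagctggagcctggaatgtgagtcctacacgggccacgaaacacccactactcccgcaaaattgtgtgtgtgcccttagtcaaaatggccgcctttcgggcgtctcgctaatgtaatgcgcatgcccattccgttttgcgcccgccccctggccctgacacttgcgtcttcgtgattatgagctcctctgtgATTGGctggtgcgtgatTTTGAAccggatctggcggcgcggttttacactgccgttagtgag

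Each of the 4 windows holds 1 TTTGAA and at least 1 CCAAT match, and in Plk1, Cenpa and Racgap1 the TTTGAA lies downstream of the CCAAT matches. Racgap1 read 8.54, 8.64 and 8.79 in iNSC and 5.72, 5.80 and 5.82 in MEF arrays and rose by 2.89 ± 0.082.

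Ribosome biogenesis genes were higher in 23 of 43 members and lower in none (median 1.08). Polr1b, a subunit of RNA polymerase I, which transcribes ribosomal RNA, read 8.33, 8.47 and 8.59 in iNSC and 6.00, 6.32 and 6.33 in MEF arrays and rose by 2.25 ± 0.091. The nucleolar proteins Nolc1 and Dkc1 rose by 2.23 ± 0.10 and 1.89 ± 0.12, and Taf1d, a factor of RNA polymerase I, by 1.94 ± 0.081. The lowest difference of the list was still positive, at 0.13. DNA methylation and Polycomb genes were higher in 10 of 35 and lower in none (median 0.39). Uhrf1, which guides the maintenance methyltransferase to new DNA, read 8.69, 8.80 and 8.96 in iNSC and 5.26, 5.54 and 5.67 in MEF arrays and rose by 3.32 ± 0.091. That methyltransferase, Dnmt1, rose by 1.82 ± 0.082, and Ezh2, the Polycomb methyltransferase, by 1.76 ± 0.093.

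**Figure D5:**
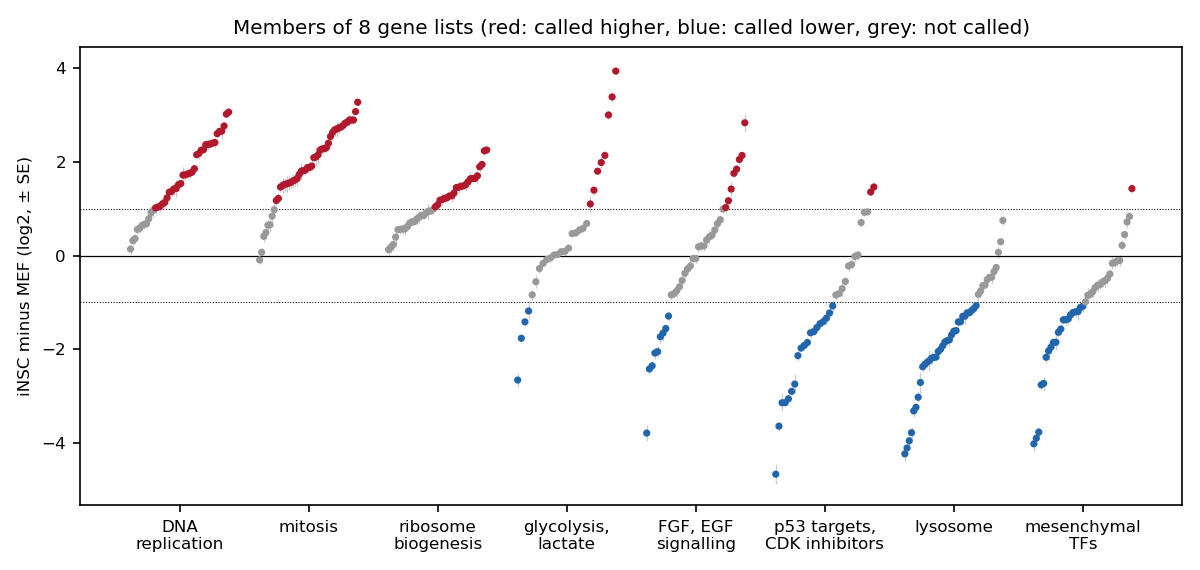
Difference between iNSC and MEF means (log2, vertical, bars ± SE) for each measured member of 8 gene lists, ordered within the list; red called higher, blue called lower, grey not called, dotted lines at 2-fold. Replication, mitosis and ribosome biogenesis lie almost wholly above 0, p53 targets and lysosome genes mostly below, and glycolysis and FGF and EGF genes spread to both sides.

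The pluripotency list was higher in 11 of 29 members and lower in 1, Tbx3 (-1.40 ± 0.11), with a median of 0.31. Besides Pou5f1, Gdf3, a growth factor of embryonic stem cells, read 8.36, 8.41 and 8.60 in iNSC and 3.81, 4.12 and 4.13 in MEF arrays and rose by 4.43 ± 0.11. Tdh, the threonine dehydrogenase of mouse embryonic stem cells, read 7.26, 7.83 and 8.33 in iNSC and 3.60, 3.87 and 4.03 in MEF arrays (3.98 ± 0.091). NSC arrays averaged 8.36 for Tdh and 4.51 for Gdf3. Utf1, a chromatin factor of pluripotent cells, rose by 3.70 ± 0.13 with a gap between the iNSC sets. Many other members of that network were not called, among them Sox2, Esrrb, Dppa4 and, named although its value had been seen, Klf4 (0.87 ± 0.11). limma called none of 15 germ line genes, 3 of which were higher at an unadjusted p under 0.05 (median 0.11, range -0.26 to 0.63). Trophoblast genes were higher in 6 of 20 and lower in 3 (median 0.15). Ascl2, a helix-loop-helix factor of placenta, read 7.24, 7.34 and 7.63 in iNSC and 4.24, 4.43 and 4.58 in MEF arrays (2.96 ± 0.11), Eomes, a T-box factor of trophoblast and mesendoderm, rose by 2.80 ± 0.13, and Tead4, a partner of YAP, by 2.02 ± 0.089. The 3 that fell were Peg10 (-1.49 ± 0.14), Gata2 (-1.38 ± 0.12) and Fgfr2 (-1.29 ± 0.11).

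Imprinted genes, expressed from 1 parental copy, were lower in 11 of 31 (35.5%, against 10.9% of all genes). Those higher numbered 4 (12.9%, against 8.21%), and the median was -0.06. H19, a non-coding RNA beside Igf2, read 4.29, 4.38 and 4.57 in iNSC and 11.31, 11.35 and 11.49 in MEF arrays and fell by 6.97 ± 0.094, and the sarcoglycan Sgce fell by 3.02 ± 0.12. Phlda2, which restrains placental growth, read 8.56, 9.06 and 9.45 in iNSC and 4.44, 4.58 and 4.67 in MEF arrays and rose by 4.44 ± 0.12. Rtl1, a retrotransposon-derived gene, rose by 4.15 ± 0.096, while Dlk1 and Meg3, which lie in the same imprinted region and are named although their values had been seen, fell by 2.32 ± 0.13 and 2.39 ± 0.12. Neighbours in 1 imprinted region thus went opposite ways. Whether the probes of Rtl1 tell it from its antisense transcript was not tested.

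Epithelial genes rose in part. Stratified epithelium genes were higher in 11 of 31 and lower in none (median 0.40), and simple epithelium and junction genes in 6 of 34 with none lower (median 0.30). Krtdap, a secreted protein of differentiating keratinocytes, read 8.26, 8.59 and 9.12 in iNSC and 2.90, 3.09 and 3.24 in MEF arrays. Lgals7, a galectin of stratified epithelium, read 9.94, 10.19 and 10.44 in iNSC and 4.92, 5.07 and 5.38 in MEF arrays. Aqp3, a water and glycerol channel, read 10.14, 10.20 and 10.28 in iNSC and 4.76, 4.84 and 5.42 in MEF arrays. These 3 genes are among the largest rises, which were picked only from genes whose arrays do not overlap. Krt17 read 8.74, 9.05 and 9.37 in iNSC and 4.13, 4.14 and 4.30 in MEF arrays, and Krt19, a keratin of simple epithelia, rose by 3.82 ± 0.082. The junction protein Pkp1 (1.95 ± 0.11), the protease inhibitor Spint2 (1.93 ± 0.082) and the tight junction protein Marveld2 (1.67 ± 0.12) rose as well. The basal keratin Krt5, usually paired with Krt14, was not called (0.12 ± 0.12; named although its value had been seen), and neither were Trp63, Cdh1 and Epcam.

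Neuronal genes were higher in 5 of 22 and lower in 1 (median 0.35). Stmn2, a regulator of microtubules in growing axons, read 10.47, 10.59 and 10.69 in iNSC and 5.47, 5.51 and 5.55 in MEF arrays. Gng3, a G protein subunit of neurons, read 9.45, 9.48 and 9.56 in iNSC and 3.98, 4.07 and 4.84 in MEF arrays. The rises were 33.7-fold for Stmn2 and 36.5-fold for Gng3. NSC arrays averaged 9.41 for Stmn2 and 6.31 for Gng3. Th, tyrosine hydroxylase, rose by 1.46 ± 0.11, and Ncam1, the neural cell adhesion molecule, was the member that fell (-2.46 ± 0.11). Astrocyte and oligodendrocyte genes were higher in 2 of 20, near the share over all genes, and lower in 5 (median -0.05). Aldoc, the brain aldolase, read 9.03, 9.16 and 9.35 in iNSC and 5.19, 5.20 and 5.32 in MEF arrays (3.94 ± 0.069), and glutamine synthetase, Glul, rose by 1.95 ± 0.070. The falls were led by Pdgfra (-1.92 ± 0.13) and Gja1, connexin (-1.68 ± 0.15). Of 18 endothelial markers Esam (1.95 ± 0.089), the VEGF receptor Flt1 (1.65 ± 0.094) and Tek (1.26 ± 0.16) rose, and of 22 muscle markers Acta1 fell by 1.96 ± 0.10 and no other was called. The endothelial share higher was 16.7%, against 8.21% of all genes. The muscle share lower was 4.5%, against 10.9%.

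Glycolysis and lactate genes were higher in 8 of 28 and lower in 4 (median 0.12). After Aldoc, the glucose transporter Slc2a3 read 8.35, 8.40 and 8.57 in iNSC and 4.75, 5.01 and 5.35 in MEF arrays and rose by 3.38 ± 0.11, and the lactate exporter Slc16a3 rose by 3.00 ± 0.079. Pdk4, a kinase that inhibits the pyruvate dehydrogenase complex, fell by 2.65 ± 0.14. Cholesterol and fatty acid synthesis genes were higher in 6 of 35 and lower in 1, the sterol exporter Abcg1 (-1.07 ± 0.10), with a median of 0.42. These shares, 17.1% and 2.86%, stand beside 8.21% and 10.9% over all genes. Dhcr7, the last enzyme of cholesterol synthesis, read 10.16, 10.18 and 10.29 in iNSC and 6.92, 6.92 and 7.02 in MEF arrays and rose by 3.25 ± 0.059, and Pmvk (1.46 ± 0.087), Stard4 (1.41 ± 0.097) and the regulator Srebf2 (1.40 ± 0.056) rose too. Serine synthesis and ATF4 target genes were higher in 9 of 40 and lower in 6 (median 0.16). The amino acid transporter Slc7a3 rose by 2.19 ± 0.095 and the one-carbon enzyme Shmt1 by 1.98 ± 0.10, while Cebpb, an inflammatory and stress transcription factor, fell by 2.03 ± 0.13 and Sesn2 by 1.97 ± 0.069. Antigen presentation and interferon genes were lower in 4 of 30 and higher in 1 (median -0.38). These shares, 13.3% and 3.33%, lay near or below those over all genes, 10.9% lower and 8.21% higher. The peptide transporter subunits Tap1 and Tap2 fell by 2.83 ± 0.16 and 1.16 ± 0.16, B2m by 1.24 ± 0.14 and Irf9 by 1.09 ± 0.097, and the RNA sensor Ddx58 rose by 2.99 ± 0.12.

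The iNSC sets differed little from each other: 15 probe sets were called higher (0.0815%) and 11 lower (0.0598%) in iNSC1 than in iNSC2, 0.141% of those tested. Of the probe sets called against MEF, 18 were among them. Utf1 read 9.11, 9.34 and 9.29 in iNSC1, 6.92, 6.76 and 6.91 in iNSC2, and 4.32, 4.74 and 4.00 in MEF arrays (replicates in order), so both sets were above MEF and iNSC1 was 2.38 ± 0.15 above iNSC2 (SE, limma adjusted p = 2.46e-07). Krt8 read 7.79, 7.91 and 7.70 in iNSC1 and 6.77, 6.65 and 6.87 in iNSC2, against 6.01, 5.78 and 5.99 in MEF arrays. Bgn read 5.19, 5.06 and 5.36 in iNSC1 and 6.36, 6.31 and 6.37 in iNSC2, against 12.03, 12.00 and 11.98 in MEF arrays. In each gene the arrays of the 2 iNSC sets did not overlap, with iNSC1 higher for Utf1 and Krt8 and lower for Bgn. Rtl1 was also lower in iNSC1, at 8.28, 8.18 and 8.04, than in iNSC2, at 9.38, 9.33 and 9.22, with MEF arrays at 4.80, 4.46 and 4.50.

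Some of the largest departures from MEF were also departures from the NSC-labelled arrays, which grew in the same medium as the iNSC cells. The iNSC arrays were called higher than NSC arrays for 508 probe sets (2.76%) and lower for 717 (3.90%), 6.66% in all. Ranked by the smaller of both differences, the genes highest in iNSC were Cyp4f39, Ret, Krt17, Car14, Aqp3 and Lypd5, a surface protein of the LY6 family. Ret, the receptor for GDNF ligands, read 10.08, 10.20 and 10.39 in iNSC and 5.01, 5.05 and 5.06 in MEF arrays, and its iNSC mean lay 5.56 ± 0.15 above the NSC mean. Car14 lay 4.92 ± 0.082 and Lypd5 4.75 ± 0.11 above it. The genes lowest in iNSC against both were Serpine2, Ccng1, Trp53inp1, Tcim, Pros1 and Ephx1. Ephx1, a hydrolase that detoxifies epoxides, read 6.71, 6.81 and 7.03 in iNSC and 11.28, 11.32 and 11.44 in MEF arrays, fell by 4.52 ± 0.075 against MEF and differed by -3.75 ± 0.075 from NSC. Ccng1 differed by -4.06 ± 0.21 and Trp53inp1 by -3.91 ± 0.18 from NSC, the p53 targets among the 6. Pou5f1, by contrast, differed by 0.11 ± 0.080 from NSC (limma adjusted p = 0.351) and was not called there.

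By position, called probe sets were spread over the genome. The median difference per chromosome lay between 0.012 and 0.11 for the autosomes and X, and the share called from 14.8% on chromosome 18 to 22.7% on chromosome 3. Runs of at least 4 neighbouring probe sets called in 1 direction numbered 16, of which 4 fell within 1 gene and 9 held at least 4 different genes, 8 lower and 1 higher. The longest run of different genes lay on chromosome 19 and held Stambpl1 (-1.10 ± 0.10), Acta2, the death receptor Fas (-1.65 ± 0.12), the cholesterol hydroxylase Ch25h (-4.42 ± 0.14) and the lysosomal lipase Lipa (-3.31 ± 0.14), all lower. On chromosome 1 Rdh10 (-2.39 ± 0.096), Stau2 (-1.002 ± 0.096), Ube2w (-1.20 ± 0.15) and Eloc (-1.04 ± 0.12) were lower in a row. For Gas5, a non-coding host of small nucleolar RNAs on the same chromosome, 3 of 4 probe sets rose and 1 fell. Chd7, a chromatin remodeller measured by 30 probe sets on chromosome 4, was called higher in 27 of them, with differences from 1.05 to 3.13 among those called. These probe sets share 1 transcript and are not independent.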

How the data were processed

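Expression was measured in 12 arrays, 3 in each of the groups iNSC1, iNSC2, NSC and MEF. The authors deposited log2 values made by RMA, for which the submitters' processing notes name Affymetrix Power Tools; RMA corrects background, normalises quantiles and summarises probes into 1 value per probe set. Quantile normalisation gives every array the same overall distribution, so a shift of all transcripts together would not be seen. The sources used here give no version, genome build or annotation release. A further table from the authors holds, per the file headers, gene symbols, log2 ratios and adjusted p-values from a test it does not name; its 12 per-array columns were not used because their names do not match the sample titles in a clear order. It lists 21774 of the 28815 probe sets, those whose highest group mean is above 3: the lowest such mean was 3.0003 among the listed and the highest 2.9998 among the 7041 unlisted. Of the listed probe sets 18403 carried 1 symbol, 1452 several and 1919 none. Current symbols came from Entrez identifiers, 17520 of which matched; 883 kept their name and 3400 symbols changed. A gene with several probe sets (706 genes) is represented in lists by its brightest probe set, judged by the mean of all 12 arrays.

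limma 3.58.1 (R 4.3.3) was fitted to all 12 arrays with 1 mean per group, no covariate and variances moderated with a trend on level; the residual degrees of freedom were 8 and those of the prior 7.9. Tests were two-sided, and p-values were Benjamini-Hochberg adjusted over all 18403 probe sets. A probe set was called at an adjusted p under 0.05 and at least 2-fold. The script was tested on simulated data. In the authors' deposited table, 1520 probe sets pass the same thresholds higher and 1977 lower, 3496 of them called here in the same direction, and its ratios differ from the differences here by at most 0.0012.

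The 35 lists hold 1162 genes, of which 1083 were measured and 24 stand in several lists; they are described by counts and medians with no test. Genes are named as the 12 largest rises and falls with no overlap between labels (gene models without a proper name left out), the 4 largest calls of each list and every call where it has 5 or fewer, the cell type markers, the 5 genes in each direction that differ most between iNSC1 and iNSC2, members of the 5 longest runs of neighbours, and the 6 that depart most from both MEF and NSC in each direction. The comparison, lists and rules were chosen with earlier results of these data known. Alternatives were no fold minimum, a minimum level, median centring, the 9 arrays alone, 1 probe set per gene, a replicate block and leaving out each array. The number of arrays limits precision. A few genes that these rules name are not reported here.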

Additional observations from a re-analysis of the deposited data

Results flagged for a closer look

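Within the iNSC minus MEF comparison, 4 named genes differed between the iNSC sets by the limma test of iNSC1 minus iNSC2 at an adjusted p under 0.05 and at least 2-fold, so their change against MEF was not the same in both. The iNSC1 minus iNSC2 differences were 2.38 for Utf1, 1.04 for Krt8, -1.15 for Bgn and -1.14 for Rtl1. For each of the 4, both sets lay on the same side of the MEF arrays. Because the labels give no property that separates the sets, what goes with these differences was not tested.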

How the results depend on the processing

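Without the fold minimum, 5457 probe sets were higher and 4855 lower in iNSC than in MEF arrays, 5125 and 4639 for iNSC1 alone, 4951 and 4486 for iNSC2 alone, and 122 and 259 in iNSC1 minus iNSC2; runs of neighbours numbered 299 in place of 16. With a level of 6 in place of 5 as low, 1023 rises had a low MEF mean. Median centring gave 17 probe sets lower in iNSC1 than in iNSC2, in place of 11. Leaving out each array in turn gave 1478 to 1574 higher and 1842 to 2120 lower for iNSC minus MEF, 1546 to 1615 and 1916 to 2190 for iNSC1 minus MEF, 1427 to 1620 and 1803 to 2033 for iNSC2 minus MEF, and 14 to 17 and 7 to 22 for iNSC1 minus iNSC2, the last 7 without iNSC2 replicate 1 and 22 without iNSC2 replicate 3. Requiring a group mean of at least 6 left 1213 higher and 1491 lower. Of the 163 called named genes, 11 had no group mean of 6 and were not tested under that minimum; 161 kept their call under each of the 15 alternatives in which they were tested, while Stau2 and Eloc lost it when some single arrays were left out. The cause of these shifts was not tested, apart from the fold minimum, which by construction adds small differences. Among the lists, 9 counts moved by over 1.5 times with a group mean of at least 6, which removes members: 13 chemokine, 6 HOX, 3 astrocyte and 2 glycolysis genes were then lower in place of 22, 14, 5 and 4, the single lower pluripotency and cholesterol genes and the single higher mesenchymal factor dropped to 0, and 6 DNA methylation and 1 Wnt genes were higher in place of 10 and 2. Without the fold minimum 40 list counts moved so far. Leaving out 1 array moved counts so far only where the count with all arrays was at most 2 genes. Pluripotency lower became 2 without MEF replicate 1 or 3, iNSC1 replicate 2 or iNSC2 replicate 3. Metalloproteases higher became 1 without MEF replicate 1 or iNSC1 replicate 2. Endothelial lower became 1 without MEF replicate 5 or iNSC1 replicate 1. Wnt higher became 1 without MEF replicate 1, and HOX higher became 2 without iNSC1 replicate 3. Cholesterol lower became 4 without MEF replicate 5 and 2 without iNSC1 or iNSC2 replicate 1.

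Replicate numbers are shared between groups. Same-numbered arrays correlated in their deviations at -0.180 to 0.297 and others at -0.336 to 0.308, and only 6 of the 15 same-numbered pairs were over 0.1, so the numbers were not taken to pair the arrays. The 6 pairs of replicate 1 arrays were all positive, at 0.043 to 0.269, and 6 of the 11 arrays with a same-numbered partner correlated best with one, so a shared factor for that number is not excluded by this check. With the replicate number as a block, 1591 probe sets were higher and 2121 lower, in the cholesterol list 4 were lower in place of 1, as without MEF replicate 5, and 1 endothelial gene was lower in place of 0.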
